A study of Mus musculus with 8 samples.

Results

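Mitral and tufted cells are the glutamatergic output neurons of the olfactory bulb. Their dendrites receive the input of olfactory sensory neurons in the glomeruli, and their axons carry it to the olfactory cortex, while granule and periglomerular interneurons inhibit them. The genes described here are Tbx21, Eomes and Tbr1, which encode T-box transcription factors of these neurons, Slc17a7 and Slc17a6, which encode vesicular glutamate transporters, and Reln, which encodes the secreted glycoprotein reelin. They were chosen by name as markers of these neurons, as all noncontrol probes that carry 1 of the 6 gene names. This gave 8 probes among 59305 noncontrol spots, and 6 of 34797 gene names.

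Male C57BL/6J mice, with no transgene or other allele named, were studied in 4 groups. C-C mice were reared in standard cages and later breathed clean air, C-DE mice were reared in standard cages and breathed diesel exhaust, EE-C mice were reared with environmental enrichment and breathed clean air, and EE-DE mice had both enrichment and exhaust. Enrichment (larger cages with objects to explore) began before birth, with the pregnant dam, and, per the study's methods, the rearing conditions were kept in the exposure chambers. Exhaust was given at 90 µg/m3 for 8 h a day over 28 days, from postnatal day 28 to 55, after weaning on day 27. All mice were 56 days old. Each group was 1 pool of olfactory bulb RNA, drawn from 7 animals in each standard-cage group, 8 EE-C animals or 9 EE-DE animals, and every pool went onto 2 arrays. The paired arrays therefore repeat 1 pool and carry no spread between animals, so no difference between 2 groups could be tested and no p-value is given. An additive fit of housing and exposure over the 4 pools, which would leave 1 residual degree of freedom, was not run.

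Levels are log2 scanner signals minus the 75th percentile of the noncontrol signals of the same array, so 0 marks that percentile. A change is the mean level of one pool minus that of another, and its range covers the 4 ways to set a single array of the first against a single array of the second, called pairings. All 8 arrays lay on 1 slide. Standard housing filled slide column 1 and enrichment column 2, clean air rows 1 and 2, and exhaust rows 3 and 4, so housing and column, or exposure and row, cannot be told apart. The 75th percentile lay between 644 and 716 units. Between 68.0% and 70.6% of noncontrol spots were well above background on 7 arrays, against 56.7% on EE-DE array 1, whose median background was 29 units against 21 to 24 on the others.

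All 8 member probes were well above background on all 8 arrays, with no saturated spot and no outlier flag, so the labelled tissue contained each marker. Eomes and Tbr1 had 2 probes each, and the other 4 genes 1 each. Every probe is 60 bases long, with 35.0% to 45.0% G and C. Their places on mouse build mm9, as the array files give them, are chr11:96959417-96959476 (minus strand) for Tbx21, chr9:118394425-118394484 and chr9:118395189-118395248 (plus) for Eomes, chr7:52430841-52430900 (plus) for Slc17a7 and chr7:58926067-58926126 (plus) for Slc17a6. The Tbr1 probes lie at chr2:61644054-61644113 and chr2:61652093-61652152 on the plus strand, and the Reln probe at chr5:21404915-21404974 on the minus strand. The transcripts named for them are NM_019507 (Tbx21), NM_010136 (Eomes), NM_009322 (Tbr1), NM_182993 (Slc17a7), NM_080853 (Slc17a6) and NM_011261 (Reln). Exon and UTR boundaries on this build were not used here.

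A pair of probe sequences is shown because the results turn on them: the upstream Tbr1 probe, at transcript position 970, lies in the part that encodes the DNA-binding T-box and was the dimmest member probe, and the Reln probe, at transcript position 10112, gave the largest member change. They are written 5′ to 3′ as in the array files, in lower case throughout because no base is singled out.
Tbr1, position 970: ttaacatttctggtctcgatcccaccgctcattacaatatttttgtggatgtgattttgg
Reln: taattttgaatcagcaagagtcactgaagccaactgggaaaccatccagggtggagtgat

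Across the 4 pools the 6 genes stayed close to their own level. None of the 8 probes changed by 1.5-fold in any of the 5 comparisons, and 36 of the 40 changes were smaller than 1.1-fold. The largest was Reln in EE-C against C-C, 1.16-fold lower. In bulk tissue, fewer cells of a type and less RNA per cell cannot be told apart, so a level here is the product of both. Probes bind with different strength, so levels are compared between pools for 1 probe and never between probes.

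**Figure D1:**
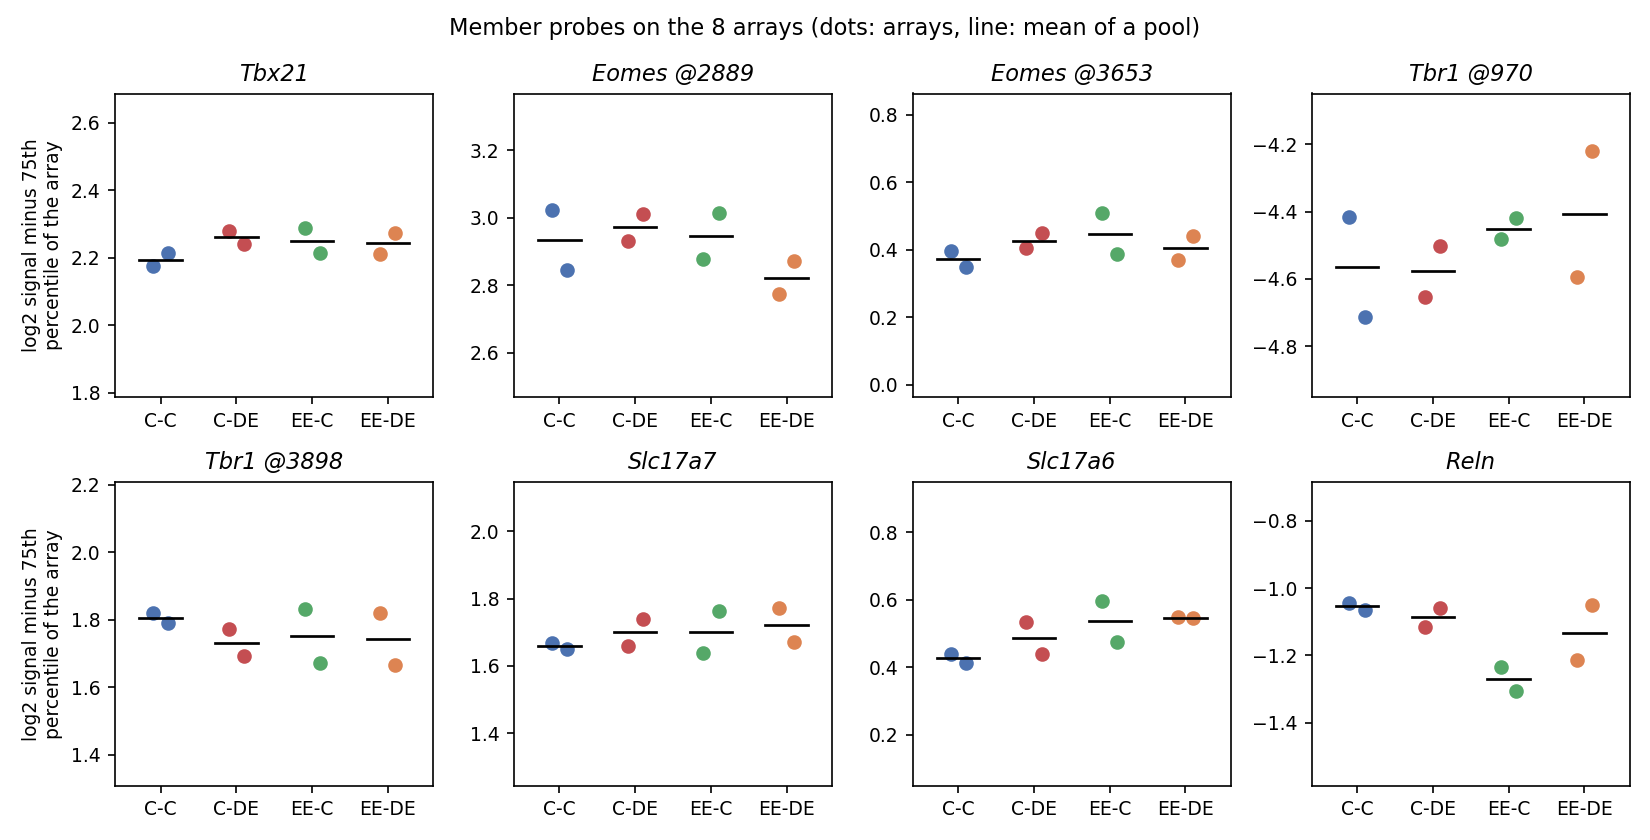
Level of each member probe (y axis, log2 units from the 75th percentile of its array) in the 4 pools (x axis); dots are the 2 arrays of a pool, lines their mean, and every panel spans the same number of log2 units. The number after @ is the transcript position of the probe. The Reln arrays of EE-C (-1.23 and -1.30) lie below all others.

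Tbx21 encodes T-bet, which in the bulb marks mitral and tufted cells and elsewhere is known from T helper cells. Its probe read 2.17 and 2.21 on the C-C arrays, 2.28 and 2.24 on C-DE, 2.29 and 2.21 on EE-C, and 2.21 and 2.27 on EE-DE. C-DE and C-C did not overlap, and every other pair of pools did. From highest to lowest the order was C-DE, EE-C, EE-DE and C-C, with each neighbour overlapping the next. The 8 arrays spanned 1.08-fold from lowest to highest.

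Eomes encodes Tbr2, a T-box factor of mitral and tufted cells that is also known from intermediate progenitors. Its probe at transcript position 2889 read 3.02 and 2.84 on the C-C arrays, 2.93 and 3.01 on C-DE, 2.88 and 3.01 on EE-C, and 2.77 and 2.87 on EE-DE. The EE-DE arrays were the low ones: both lay below both C-DE and both EE-C arrays, and they overlapped those of C-C. EE-DE was -0.15 from C-DE (pairings -0.24 to -0.06), which is 0.902 times its signal, and -0.12 from EE-C (-0.24 to -0.0047). The downstream Eomes probe, at position 3653, read 0.39 and 0.35 on C-C, 0.40 and 0.45 on C-DE, 0.51 and 0.39 on EE-C, and 0.37 and 0.44 on EE-DE. There EE-DE overlapped both C-DE and EE-C, with differences of -0.02 and -0.04, and the only pools without overlap were C-DE and C-C (0.06, with pairings from 0.01 to 0.10, but -0.02 with the normexp background correction). The order was C-DE, EE-C, C-C and EE-DE by the upstream probe and EE-C, C-DE, EE-DE and C-C by the downstream probe, with every neighbour overlapping the next in both. The change by the upstream probe minus that by the downstream probe was -0.13 in EE-DE against C-DE and -0.15 in EE-DE against C-C.

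Tbr1 encodes a T-box factor of early-born glutamatergic projection neurons. The probe at position 3898 read 1.82 and 1.79 on C-C, 1.77 and 1.69 on C-DE, 1.83 and 1.67 on EE-C, and 1.82 and 1.67 on EE-DE. C-DE lay below C-C without overlap, by -0.07 (-0.13 to -0.02), and the arrays of all other pairs of pools overlapped. Under alternative processing the change in C-DE against C-C ran from -0.15 to -0.03. The order was C-C, EE-C, EE-DE and C-DE, with each neighbour overlapping the next. The upstream probe, whose sequence is given above, read -4.42 and -4.71 on C-C, -4.65 and -4.50 on C-DE, -4.48 and -4.42 on EE-C, and -4.59 and -4.22 on EE-DE. Both C-DE arrays lay below both EE-C arrays, all other pairs of pools overlapped, and its paired arrays differed by up to 0.37. In EE-DE against C-C the upstream probe changed by 0.16 (-0.18 to 0.49) and the downstream probe by -0.06, the widest gap between them, 0.22. In the same comparison Eomes changed by -0.11 upstream (-0.25 to 0.03) and by 0.03 downstream (-0.02 to 0.09), the latter -0.05 with normexp. Pairings lay on both sides of 0 for both Eomes probes, so they settle neither sign. Under the alternatives the sign turned for the downstream Eomes probe alone.

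Slc17a7 encodes VGLUT1, which loads glutamate into synaptic vesicles. It read 1.67 and 1.65 on C-C, 1.66 and 1.74 on C-DE, 1.64 and 1.76 on EE-C, and 1.77 and 1.67 on EE-DE. Both EE-DE arrays lay just above both C-C arrays, by 0.06 (0.0036 to 0.12), and all other pairs of pools overlapped. Under alternative processing this difference between EE-DE and C-C ran from 0.01 to 0.14. The order was EE-DE, EE-C, C-DE and C-C, with each neighbour overlapping the next.

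Slc17a6 encodes VGLUT2, the other main vesicular glutamate transporter, which olfactory sensory neurons use as well. It read 0.44 and 0.41 on C-C, 0.53 and 0.44 on C-DE, 0.60 and 0.48 on EE-C, and 0.55 and 0.55 on EE-DE. C-C was the low pool and did not overlap any other pool. The order was EE-DE, EE-C, C-DE and C-C, in which the last pair alone of the neighbours stood apart. EE-DE was 0.12 above C-C (0.10 to 0.14, 1.09-fold), EE-C 0.11 above it (0.04 to 0.18), and C-DE 0.06 above it (0.0003 to 0.12). Of all 21709 probes tested, 28.0% changed by more than Slc17a6 in EE-DE against C-C. In C-DE against C-C, the 365 spots around this probe on the array had a median change of 0.06 as well, and relative to them the change of Slc17a6 was -0.0006. Their median was 0.07 in EE-C against C-C and -0.06 in EE-DE against C-DE, and relative to them Slc17a6 changed by 0.04 and 0.12 there.

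Reln encodes reelin, which mitral cells secrete and which binds the receptors Vldlr and Lrp8 and acts through the adaptor Dab1. Its probe, shown above, read -1.04 and -1.06 on C-C, -1.11 and -1.06 on C-DE, -1.23 and -1.30 on EE-C, and -1.21 and -1.05 on EE-DE. Both EE-C arrays lay below the 6 others, which overlapped one another. The order was C-C, C-DE, EE-DE and EE-C, with only EE-DE and EE-C apart.

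Reln was -0.21 in EE-C from C-C (-0.26 to -0.17), and 9.54% of all probes tested changed by more. With another background correction (normexp) the same difference was -0.11. The 354 spots around the Reln probe had a median change of 0.02, and relative to them Reln stood at -0.23. In the exposed mice the housing difference was -0.05 (-0.15 to 0.06) and the arrays overlapped.

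Diesel exhaust in standard cages was addressed by C-DE against C-C. None of the 8 member probes changed by 1.5-fold, where 0.576% of all probes did (0.143% higher, 0.433% lower). Arrays did not overlap for 4 member probes: 3 were higher in C-DE (Tbx21, Eomes at position 3653 and Slc17a6) and 1 was lower (Tbr1 at position 3898). The sign of each of the 3 higher probes turned under an alternative: with normexp Tbx21 stood at -0.0060 and Eomes at position 3653 at -0.0235, and relative to the spots around it Slc17a6 stood at -0.0006. Over all probes 40.9% did not overlap, 18.5% higher and 22.4% lower, so 4 of 8 is near the background. The median change of the 6 genes, each by its brightest probe, was 0.0390, against -0.0065 for all probes. Taken within single pairings of arrays, the member median ran from -0.0285 to 0.0389, which need not enclose the value from pool means, since a median over genes does not average.

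Diesel exhaust in enriched mice was addressed by EE-DE against EE-C. Again 0 of 8 member probes reached 1.5-fold, beside 0.944% of all probes (0.608% higher, 0.336% lower). Reln was higher without overlap, by 0.14 (0.02 to 0.25), and Eomes at position 2889 was lower. Over all probes 34.2% did not overlap, 14.6% higher and 19.6% lower. The median change of the 6 genes was 0.0017 (pairings -0.0294 to 0.0414), against -0.0074 over all probes.

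Enrichment in clean air was addressed by EE-C against C-C. No member probe of the 8 reached 1.5-fold, and 0.825% of all probes did (0.286% higher, 0.539% lower). Slc17a6 was higher and Reln lower without overlap, 2 of 8, where 37.7% of all probes did not overlap (20.2% higher, 17.5% lower). The median change was 0.0265 for the 6 genes (pairings -0.0097 to 0.0367) and 0.0065 for all probes. Enrichment under exhaust was addressed by EE-DE against C-DE. The count past 1.5-fold was 0 of 8 member probes and 0.636% of all probes (0.557% higher, 0.0783% lower). Slc17a6 was higher, by 0.06, and Eomes at position 2889 lower without overlap, beside 42.2% of all probes (21.2% higher, 21% lower). The median change of the 6 genes was -0.0034 (pairings -0.0279 to 0.0022), and that of all probes 0.0001.

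Enrichment and exhaust together were addressed by EE-DE against C-C. Here too 0 of 8 member probes reached 1.5-fold, and 0.815% of all probes did (0.474% higher, 0.341% lower). Slc17a7 and Slc17a6 were higher without overlap, and no member was lower, where 47.1% of all probes did not overlap (22.2% higher, 24.8% lower). The median change of the 6 genes was -0.0068 (pairings -0.0013 to 0.0252), against -0.0060 for all probes, and it was 0.0478 when all probes of a gene were averaged. The sign of this median is therefore not settled. Without the dim Tbr1 probe, no single pairing of arrays showed a member difference above 1.20-fold, and with it the widest was 1.40-fold.

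**Figure D2:**
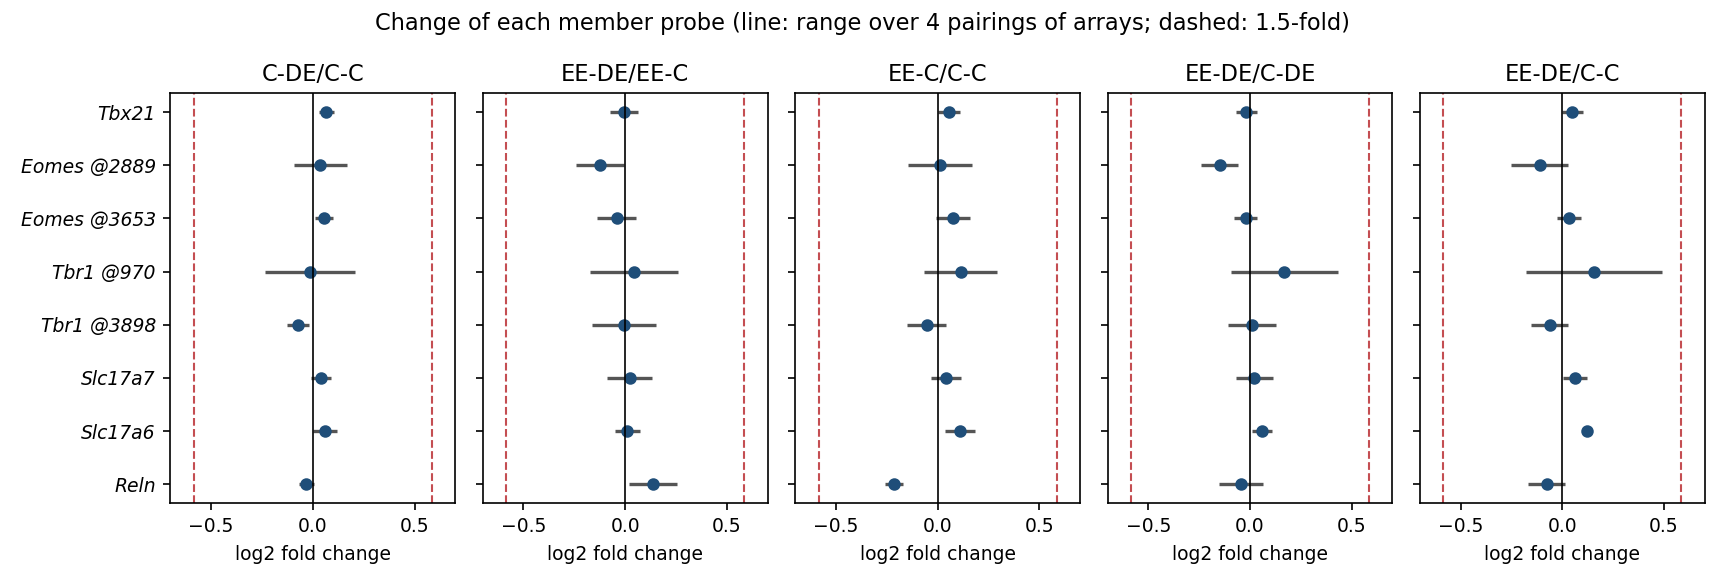
Change of each member probe (x axis, log2 fold change, first group over second) in the 5 comparisons; dots are differences of pool means, lines the range over the 4 pairings of arrays, and dashed lines 1.5-fold. All lines stay inside the dashed lines, and the longest belong to Tbr1 at position 970.

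The spread of the 4 pool means of a probe, highest minus lowest, had a median of 0.0981 over the 8 member probes and 0.131 over all 21709. Brighter probes spread less, so each member was also set beside the probes within 0.5 of its level. There Eomes at position 2889 and Reln spread more than most: 17.7% of 1914 probes spread more than the former (0.15) and 23.6% of 2691 more than Reln (0.21). Slc17a6 stood near the middle, with 45.8% spreading more. The spread of the other 5 probes was small for their level, with 72.2% to 87.5% of like probes spreading more.

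**Figure D3:**
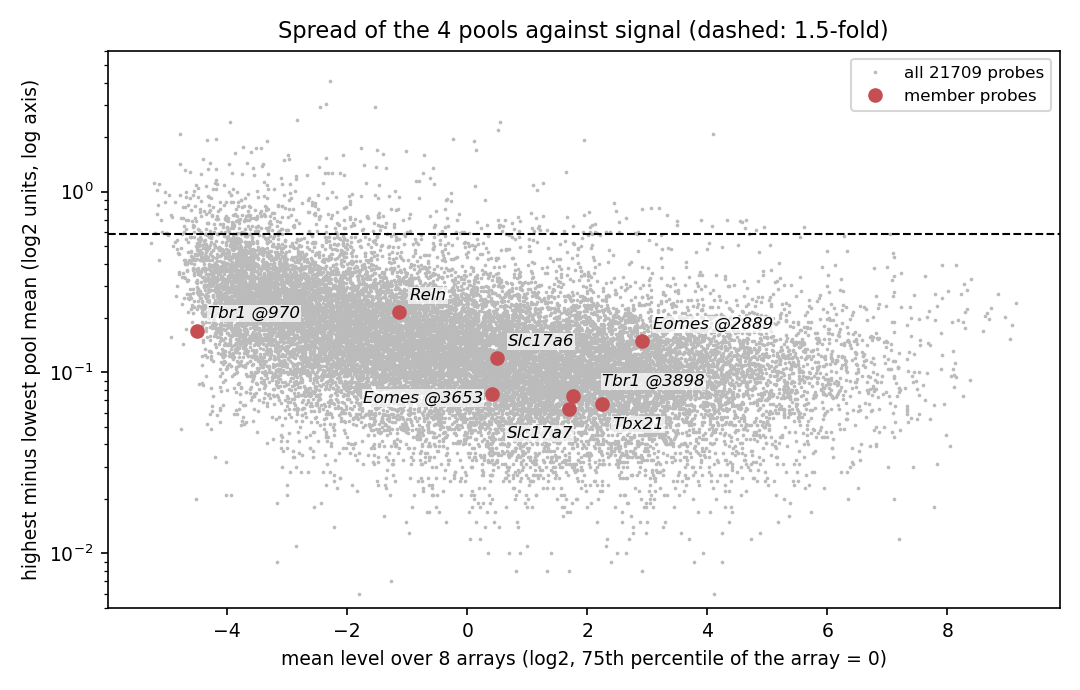
Highest minus lowest pool mean (y axis, log2 units on a log axis) against mean level over the 8 arrays (x axis, log2, 75th percentile at 0) for all 21709 probes (grey) and the 8 member probes (red). The dashed line marks 1.5-fold. All members lie below it, with Reln (0.21) the highest.

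Whether exhaust went with a different change in the 2 housings was described by subtracting C-DE minus C-C from EE-DE minus EE-C. For Reln the exhaust difference was -0.03 (-0.07 to 0.01) in standard cages and 0.14 with enrichment. Their difference was 0.17, and it was above 0 in all 16 combinations of arrays (0.02 to 0.32). Of all 21709 probes, 15.9% had all combinations on one side of 0 (7.5% above, 8.44% below), beside 1 of the 8 member probes. For Eomes at position 2889 it was -0.16, with combinations on both sides of 0 (-0.41 to 0.09). The other 6 probes lay between -0.10 and 0.07, with combinations on both sides of 0. In size, the median was 0.0707 over the member probes and 0.0753 over all probes. With 1 pool in each group this difference was not tested.

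**Figure D4:**
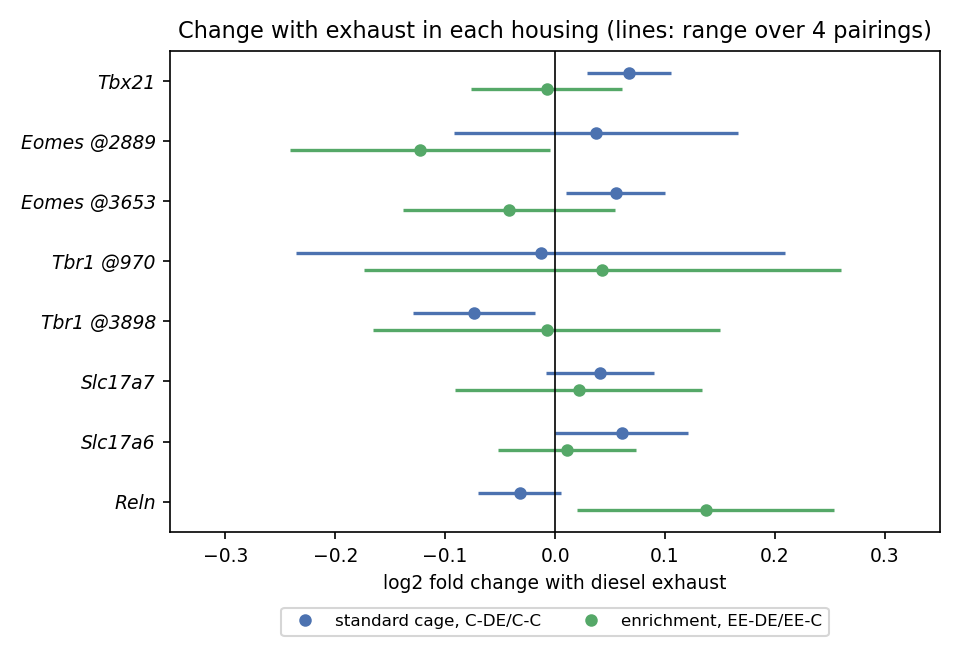
Log2 fold change with exhaust (x axis) of each member probe in standard cages (blue, C-DE over C-C) and with enrichment (green, EE-DE over EE-C); lines are ranges over 4 pairings of arrays. For Reln the lines do not meet (-0.07 to 0.01 and 0.02 to 0.25).

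Other genes of the same cells and pathways were taken as 6 lists with 55 entries, of which 44 passed the filter on dim and flagged spots. In 4 of the 5 comparisons none of the 44 entries reached 1.5-fold, and in EE-DE against EE-C 1 was higher and 0 lower. The exception was Tbx22, a T-box factor known from palate development. It read 0.91 and 0.53 on C-C, 1.31 and 0.74 on C-DE, 0.13 and 0.95 on EE-C, and 1.09 and 1.20 on EE-DE. EE-C array 1 was the lowest, and paired arrays lay farther apart in C-C, C-DE and EE-C than in EE-DE. EE-DE was 0.60 above EE-C (0.14 to 1.07), 1.52-fold.

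The list of 11 other mitral and tufted cell genes was measured in full, and its medians lay between -0.03 and 0.04 over the 5 comparisons. Cdhr1, a protocadherin-family adhesion protein of mitral cell dendrites, read 4.66 and 4.72 on C-C, 4.72 and 4.74 on C-DE, 4.67 and 4.76 on EE-C, and 4.74 and 4.70 on EE-DE. Its changes ran from -0.01 to 0.04. The lowest value of the list was -0.32 for Lhx5, a LIM homeobox factor picked after its values were seen, in C-DE against C-C. Lhx5 read -2.87 and -2.71 on C-C, -3.10 and -3.12 on C-DE, -2.82 and -2.79 on EE-C, and -2.94 and -2.79 on EE-DE, so that C-DE lay below the other pools without overlap.

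All 9 reelin pathway partners were measured, and their medians lay between -0.07 and 0.03. The receptor gene Vldlr read 3.096 and 3.018 on C-C, 3.01 and 2.97 on C-DE, 3.05 and 2.93 on EE-C, and 2.95 and 3.06 on EE-DE. C-DE and C-C did not overlap, by -0.07 (-0.13 to -0.0078), and the other pairs of pools did. Src, a tyrosine kinase that acts on Dab1, had the widest change of the list and was picked after its values were seen. It read -2.94 and -2.92 on C-C, -3.36 and -3.11 on C-DE, -3.40 and -3.31 on EE-C, and -3.17 and -3.32 on EE-DE. C-C lay above all other pools, and EE-C against C-C was -0.43 (-0.48 to -0.38), 0.742 times the signal.

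Of glutamate supply and uptake, all 8 genes were measured, with medians from -0.02 to 0.04. Slc17a8, which encodes VGLUT3 and stands in 2 of the lists, read -1.60 and -1.50 on C-C, -1.36 and -1.59 on C-DE, -1.52 and -1.59 on EE-C, and -1.22 and -1.39 on EE-DE. EE-DE lay above EE-C and C-C without overlap, by 0.25 (0.14 to 0.37) and 0.25 (0.12 to 0.38). Among 7 other Slc17 transporters 3 passed the filter, and Slc17a1, Slc17a2, Slc17a3 and Slc17a4 were not well above background on any array. Slc17a5, the lysosomal sialic acid transporter sialin, changed between -0.08 and 0.05.

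Of 14 other T-box factors 9 passed the filter, with medians from -0.10 to 0.07, and T, Tbx5 and Tbx20 were not well above background on any array. Of 6 factors of the pallial glutamatergic lineage 4 passed, with medians from -0.04 to 0.09. Pax6, a paired-box factor of forebrain progenitors that bulb interneurons also carry, read -0.18 and -0.14 on C-C, -0.17 and -0.17 on C-DE, -0.12 and -0.20 on EE-C, and -0.16 and -0.28 on EE-DE. Its changes ran from -0.06 to -0.0009, and the arrays of all pools overlapped.

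Markers of other cells that the dissection could hold were summed on the linear scale, in multiples of the array's 75th percentile. The 6 members summed to between 20.2 and 21.2 on the 8 arrays. Bulb interneuron markers (7 of 8 measured) ran from 308 to 328, astrocyte markers from 47.3 to 49.7, oligodendrocyte markers from 149 to 163, microglia markers from 63.4 to 77.1 and endothelial markers from 19.9 to 22.4. Pools stood apart within some of these ranges. The interneuron sum was 327 and 328 on the C-C arrays, 326 and 327 on C-DE, 319 and 321 on EE-C, and 308 and 312 on EE-DE. In the same order the microglia sum was 69.7 and 77.1, 63.4 and 63.7, 68.4 and 69.1, and 65.3 and 66.1. These differences were not tested. Markers of pyramidal neurons of the anterior olfactory nucleus and cortex summed to between 0.830 and 0.990 (5 of 6 measured). In these 6 lists no gene reached 1.5-fold in any of the 5 comparisons.

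The 7 olfactory mucosa markers behaved otherwise. Their sum was 66.3 and 80.7 on the C-C arrays, 59.2 and 68.3 on C-DE, 68.8 and 78.7 on EE-C, and 75.5 and 83.1 on EE-DE. Most of this sum came from Omp (mean level 6.03), which did not reach 1.5-fold in any comparison, so the sum says little about the other markers. In C-DE against C-C 5 of the 7 were lower by 1.5-fold, in EE-DE against EE-C 4 were higher, and in EE-DE against C-DE 5 were higher. In EE-C against C-C 1 was lower and in EE-DE against C-C 1 was higher. Pairings of arrays lay on both sides of 0 for 3 of the 4 genes in EE-DE against EE-C and for the single genes of the latter comparisons, and for none in the C-DE comparisons. In these comparisons none of the member probes reached 1.5-fold. Whether the mucosal RNA touched the small member differences was not tested.

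**Figure D5:**
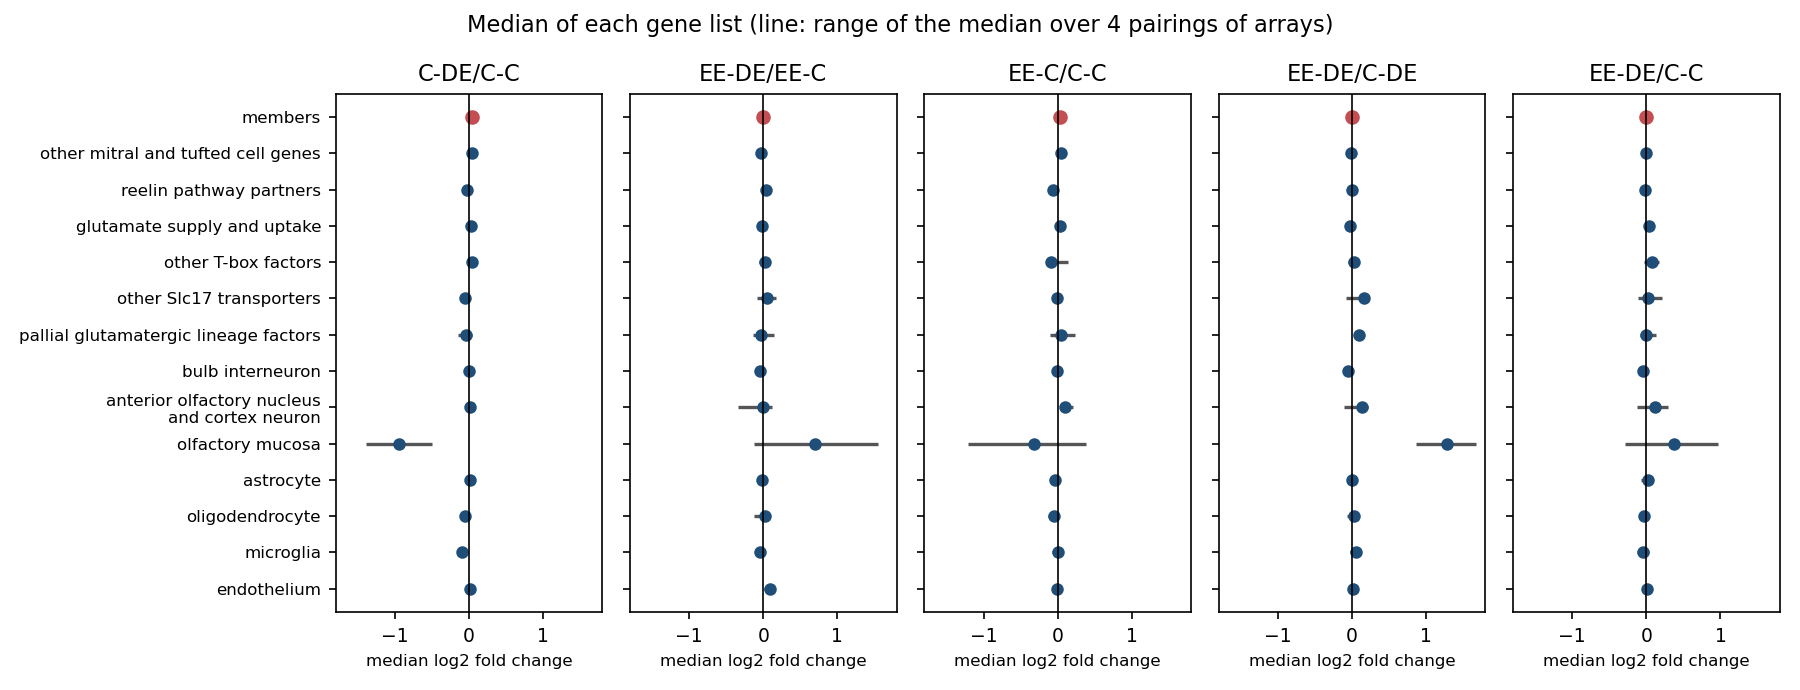
Median log2 fold change (x axis) of the 6 members (red) and of the pathway and marker lists (blue) in the 5 comparisons; lines are the range of the median over 4 pairings of arrays. The dots of the members stay between -0.01 and 0.04, and those of the olfactory mucosa list run from -0.95 to 1.28.

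For each member the probes of other genes were ranked by the root mean square difference over the 8 arrays, after each probe was centred on its own mean. Nearest to Tbx21 were Naa38 (0.0089), B4galt2 and Hiat1, and nearest to Eomes were A330050F15Rik (0.0342), Tnfrsf11b and 2310044G17Rik. Mmd2 (0.0172), Rnd3 and Itgb4 were nearest to Tbr1, and Rab5b (0.0115), Ccdc92 and Snhg7 to Slc17a7. Gm9457 (0.0168), Hmgn2 and Dram2 were nearest to Slc17a6, and Pecr (0.0308), Pggt1b and Whsc1l1 to Reln. The members themselves varied about their means by 0.0380 (Tbx21) to 0.0942 (Reln), so these distances are read against a small total, and the 8 arrays stand for 4 pools only. No member appeared among the 3 nearest genes of another.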

How the data were processed

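RNA of the olfactory bulb was measured on one-colour Agilent mouse arrays. The intensity of each spot was deposited by the authors as the Feature Extraction software (version 10.7.3.1, per the submitters' processing notes) wrote them, with background subtracted and no scaling between arrays, and the files place probes on mm9. A series table of log2 values, also deposited, served as an alternative. After the same centring, 99.4% of probes agreed within 0.02 on all arrays, with 0.549 the largest difference and 0.0144 the largest for a member. Scale and centring of that table were found by this comparison, and its column medians lay within 0.0183 of 0.

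The log2 processed signal minus each array's 75th percentile was used. Of 59305 noncontrol spots, 35736 carried a GenBank or RefSeq accession, 24381 of which exceeded background clearly on all 8 arrays, and 23956 remained after removing outlier flags. Spots of a probe were averaged, giving 21709 probes with 16484 gene names. A change is the difference of pool means, and 1.5-fold on these means is the threshold of the study's methods. Arrays of 1 pool are technical repeats, which sets the precision, so no test was run. A gene with several probes is represented by its brightest one in medians and lists. The RefSeq gene table (GRCm38) was used for names only and matched all 6 members.

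Members and lists were chosen with earlier results of these data known. Named genes were all members, the 3 most similar genes of each, list genes past 1.5-fold in any comparison or else the first measured gene of the list, Lhx5 and Src, which were added after their values were seen, and marker genes not well above background on any array, which are not reported here. Alternatives covered background correction, scaling, averaging, filters, threshold and each array left out, and 1, the change relative to spots within 15 rows and 15 columns, was chosen after the data had been seen. Python 3.11.15, numpy 2.4.6, pandas 2.3.3, R 4.3.3 and limma 3.58.1 (normexp with offset 50, quantile normalization) were used, and the calculation of changes was tested on simulated data.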

Additional observations from a re-analysis of the deposited data

How the results depend on the processing

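The count of member probes past 1.5-fold remained 0 in all 5 comparisons under all 100 alternative values, and none of 760 alternative changes of single member probes reached 1.5-fold. Part of these values was fixed in advance. The member probes already passed the filters, so a looser filter could not change them. Leaving out an array of a pool outside the comparison could not either, and a stricter threshold could not raise a count of 0. The largest of the 760 changes was 0.36, for Tbr1 at position 970 in EE-DE against C-DE without EE-DE replicate 1. The median change of the 6 genes moved with normexp to 0.0080 in C-DE against C-C, -0.0399 in EE-DE against EE-C, -0.0045 in EE-C against C-C and 0.0139 in EE-DE against C-DE, and with the mean of all probes of a gene to 0.0478 in EE-DE against C-C. With each array left out in turn it ran from -0.0054 to 0.0492 in C-DE against C-C, -0.0473 to 0.0505 in EE-DE against EE-C, -0.0187 to 0.0439 in EE-C against C-C, -0.0230 to 0.0052 in EE-DE against C-DE and -0.0116 to 0.0158 in EE-DE against C-C. The causes were not tested. Of the 760 changes 47 had the opposite sign to the reported one: 32 of 320 with an array left out, 9 of 40 with normexp, 3 with quantile normalization, 2 relative to the spots around the probe and 1 with the median as the scale. The 320 include changes that could not turn, because the array left out belonged to a pool outside the comparison. The share among those that could turn is therefore larger than 32 of 320. With normexp the sign turned for Tbx21 (-0.0060), Eomes at position 3653 (-0.0235) and Tbr1 at position 970 (0.0369) in C-DE against C-C, Eomes at position 2889 (-0.0353) in EE-C against C-C, Tbr1 at position 3898 (-0.0025) and Reln (0.0468) in EE-DE against C-DE, and Tbx21 (-0.0557), Eomes at position 3653 (-0.0533) and Reln (0.0253) in EE-DE against C-C. The difference between housings in the exhaust change of Reln ran from 0.09 to 0.25 with each array left out and was 0.16 with normexp.

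The count of all probes past 1.5-fold was 125 for exhaust in standard cages, 205 for exhaust with enrichment, 179 for enrichment in clean air, 138 for enrichment under exhaust and 177 for both together. In the same order it was 38, 136, 149, 53 and 51 with normexp, 572, 827, 645, 674 and 772 with spots positive and significant, 561, 879, 590, 686 and 824 with spots well above background in 1 pool, 2171, 5590, 2292, 5467 and 5516 with no filter on dim probes, and 220, 378, 319, 250 and 397 with all noncontrol spots. More probes enter under the last 4 of these settings. Without C-C replicate 2 it was 218 for exhaust in standard cages and 289 for enrichment in clean air, without EE-C replicate 2 it was 396 for exhaust with enrichment and 398 for enrichment in clean air, and without EE-DE replicate 2 it was 324 for exhaust with enrichment, 262 for enrichment under exhaust and 296 for both together. No paired analysis was possible because the replicate numbers name repeat arrays of 1 pool and no test was run. Dim signal limits Tbr1 at position 970, whose paired arrays differed by up to 0.37.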
